A study of Homo sapiens with 4 samples.

Results

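The effect of lowering TCF7 was examined in leukemia cells that received no drug. The cells were K562/G01, an imatinib-resistant derivative of K562, an established line of chronic myeloid leukemia in which the fused kinase BCR-ABL1 drives growth. The scramble group had been infected with lentivirus that encodes a scramble short hairpin RNA and the knockdown group with lentivirus that encodes a hairpin against TCF7, and each group is 1 library, so 2 of the 4 libraries of the study enter the comparison. The other 2 libraries came from cells with the same hairpins after 1 µM imatinib, an inhibitor of BCR-ABL1, for 48 hours. The labels do not say whether the infected cells were a clone or a pool, or whether infections were repeated. Of the 28482 genes in the deposited table, the 13296 with a level of at least 1 CPM, a count scaled to the total of its library, in 2 or more of the 4 libraries were compared.

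With 1 library a side no test was possible, and every difference below is a size between 2 libraries. It is given as the log2 ratio of knockdown over scramble after scaling the libraries by the trimmed mean of M values (TMM), with a 95% interval in square brackets. That interval is for counting error alone, which assumes that each read is an independent molecule, and says nothing of the spread between cultures. Action of the hairpin on TCF7, its action on other genes and a lasting difference between the 2 infected cultures cannot be told apart. The pair under imatinib shares no library with this pair, and its values stand beside the others where they help. Because the cells were infected before the drug was given, a lasting difference between the cultures would enter both pairs.

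TCF7 encodes TCF-1, a transcription factor that binds DNA through an HMG box. In canonical Wnt signalling, β-catenin enters the nucleus, binds TCF/LEF factors and activates their target genes, while in its absence these factors recruit TLE corepressors. TCF-1 is best known for its part in the development of T cells and in memory T cells, and β-catenin signalling is known for the self-renewal of leukemic stem cells in chronic myeloid leukemia.

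Total counts were 33146606 with the scramble hairpin and 30634832 with the TCF7 hairpin. All 16 genes listed as markers of K562-like erythroid and megakaryocytic cells passed the filter, with summed levels of 4231 and 4009 CPM in that order. Markers of B cells summed to 0.423 and 0.558 CPM, markers of T and NK cells to 26.2 and 22.7 CPM with CD3E, CD4 and CD247 at 0 counts in both libraries, and markers of monocytes and neutrophils to 38.9 and 48.7 CPM. Markers of eosinophils, basophils and mast cells summed to 297 and 423 CPM and are described with their genes below. In bulk RNA, more cells of a type and more RNA per cell cannot be told apart.

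TCF7 itself (ENSG00000081059.19, GRCh38 chr5:134114711-134151865, plus strand) had 339 counts with the scramble hairpin and 78 with the TCF7 hairpin, and 367 and 117 in the same order under imatinib. This is 10.2 CPM with the scramble hairpin and 2.56 CPM with the TCF7 hairpin, a log2 ratio of -1.97 [-2.37, -1.64]. The knockdown library thus kept 25.04% (95% interval 19.3% to 32.1%) of the scramble level. Under imatinib the ratio was -1.51 [-1.84, -1.22], and both knockdown libraries lay below both scramble libraries.

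Differences between the 2 libraries were small for most genes. The median log2 ratio over all 13296 genes was 8.95e-06, and 5% of genes lay below -0.61 and 5% above 0.49. At 2-fold or more, 123 genes (0.925%) were higher and 233 (1.75%) were lower with the TCF7 hairpin, together 2.68% of genes. The whole counting interval lay beyond 2-fold for 42 genes (0.316%) on the higher side and 52 (0.391%) on the lower side. Most of the large ratios belonged to genes with few reads: among genes whose mean reached 5 CPM, 19 of 10051 (0.189%) were 2-fold higher and 38 (0.378%) 2-fold lower. At 100 CPM or more, 0 of 2392 genes were 2-fold higher and 1 was 2-fold lower, PHGDH. By a looser measure, 23.8% of genes had a counting interval wholly above 0 and 23.5% one wholly below 0; at a mean of 20 CPM or more, where intervals are narrow, these shares were 30.3% and 25.2%. The list counts below for the pair without imatinib are to be read against these shares, which were not computed for the pair under imatinib.

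**Figure D1:**
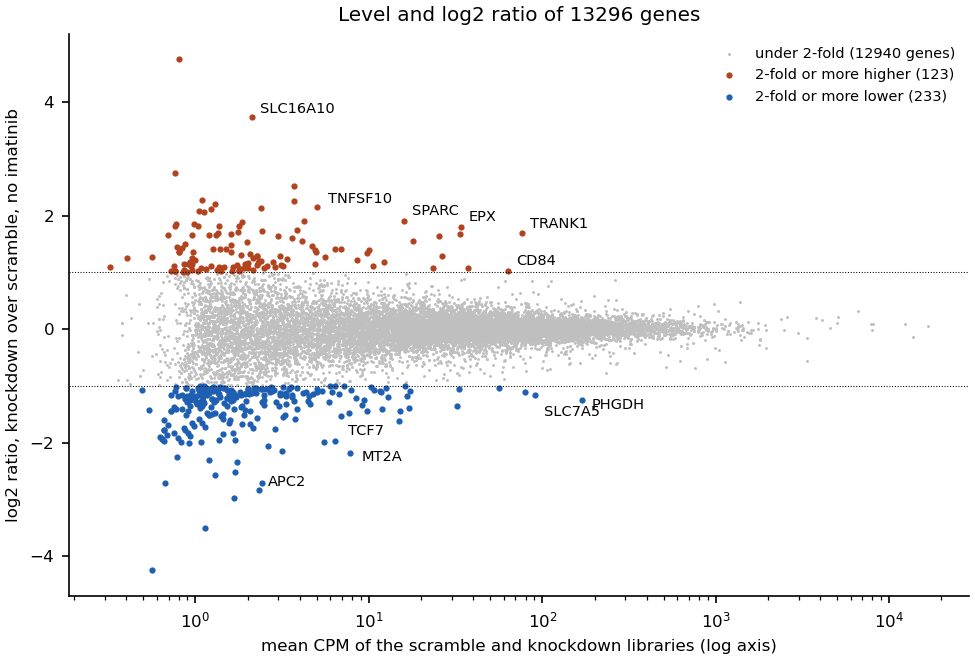
Mean level in CPM (log axis) against the log2 ratio of knockdown over scramble without imatinib, 1 point per gene for 13296 genes, with genes at 2-fold or more coloured. The 123 higher and 233 lower genes lie mostly at low levels, and PHGDH is the gene beyond 2-fold at 100 CPM or more.

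Among protein-coding genes whose mean reached 5 CPM, the 15 highest ratios ran from 1.11 to 2.15, and the whole counting interval lay beyond 2-fold for 12 of them. These values chose the genes and are given as a description. TNFSF10, the death-receptor ligand TRAIL, led with 60 counts with the scramble and 252 with the TCF7 hairpin, or 1.81 and 8.28 CPM, a log2 ratio of 2.15 [1.78, 2.62]. Under imatinib it had 54 and 232 counts and a ratio of 2.18, so the libraries with the TCF7 hairpin were high in both states. Its death receptors, which were looked at after the TNFSF10 value was seen, did not share the direction, with -0.29 for TNFRSF10A and -0.31 for TNFRSF10B.

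Several of the 15 encode surface or secreted proteins, given here with CYTIP, another of the 15, and with CD84, which lies outside them. SPARC, a collagen-binding matrix protein, measured 6.70 CPM in the scramble and 25.2 CPM in the knockdown library. LSR, a lipoprotein receptor found at cell junctions, had 183 and 444 counts, a log2 ratio of 1.39, and PLXNA2, a semaphorin receptor, 302 and 819 counts and 1.55. SLAMF6, an immune receptor of the SLAM family, had 407 and 1166 counts; its relative CD84, with 1389 and 2586 counts, had 1.02 and was 1.22 under imatinib. CYTIP, a regulator of cytohesins in leukocytes, had 183 and 427 counts in this pair and 158 and 536 under imatinib, with log2 ratios of 1.33 and 1.87. In each of these 6 genes the knockdown library was above the scramble library in both pairs.

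EPX and IL1RL1 also belong to the 15 and are given with their lineage genes below. The remaining members have varied roles. HPGD, which inactivates prostaglandins, had 525 and 1546 counts, 15.8 and 50.8 CPM, and a log2 ratio of 1.68 [1.54, 1.83]. SMARCA1, a chromatin-remodelling ATPase, had 222 and 443 counts (1.11), and ARSB, a lysosomal sulfatase, 107 and 241 (1.28 [0.96, 1.64]). EMILIN2, an extracellular matrix glycoprotein, was 1.42 [1.11, 1.76] here and 0.32 [-0.05, 0.70] under imatinib, where its interval held 0. TRANK1, a large protein with ankyrin and tetratricopeptide repeats, had 1184 and 3548 counts (1.70), KLHL4, of the kelch family, 123 and 305 (1.42), and AIM1 was 1.23. All 15 genes were higher with the TCF7 hairpin under imatinib too, where 53.4% of all genes were, and 11 of the 15 were 2-fold higher there, against 1.32% of all genes. The first gene outside the 15 was IER3IP1 at 1.08, so no gap marks the edge of the list.

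On the lower side the 15 protein-coding genes ran from -2.18 to -1.25, and the whole counting interval lay beyond 2-fold for 13. TCF7 came after MT2A, a metallothionein described below, and TNS4, a focal adhesion protein. TNS4 had 292 counts in the scramble and 66 in the knockdown library, a log2 ratio of -1.99 [-2.43, -1.63], and 252 and 15 counts under imatinib, a ratio of -3.78. B3GAT1, the glucuronyltransferase that makes the HNK-1 (CD57) carbohydrate, had 746 and 221 counts here and 951 and 188 under imatinib. IL16, which encodes a cytokine precursor, stood at 17.3 and 6.47 CPM, a log2 ratio of -1.41, and was -1.06 under imatinib.

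Other members of the 15 lowest included ANKH, a membrane protein that exports pyrophosphate and other anions, with 376 and 123 counts (-1.48), MAP3K21, a mixed-lineage kinase, with 472 and 158 (-1.45), and SPIRE1, an actin nucleator, with 732 and 247 (-1.44). COLGALT2, a collagen galactosyltransferase, had 820 and 287 counts and a log2 ratio of -1.39. ARAP3, a GTPase-activating protein, measured 13.0 CPM with the scramble hairpin and 5.12 CPM with the TCF7 hairpin (-1.34), and under imatinib the difference was smaller, -0.59. C1orf61 stood at -1.25 and KAZN, a desmosome-associated protein, at -1.29; ALDH1L2, PHGDH and NDRG1 complete the 15 and are given with their pathways. All 15 were lower with the TCF7 hairpin under imatinib as well, where 46.6% of all genes were lower, and 11 were 2-fold lower, against 1.51% of all genes. Just outside the 15 lay NRCAM at -1.22 and OSGIN1 at -1.21, which stood at -0.31 and 0.28 under imatinib.

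**Figure D2:**
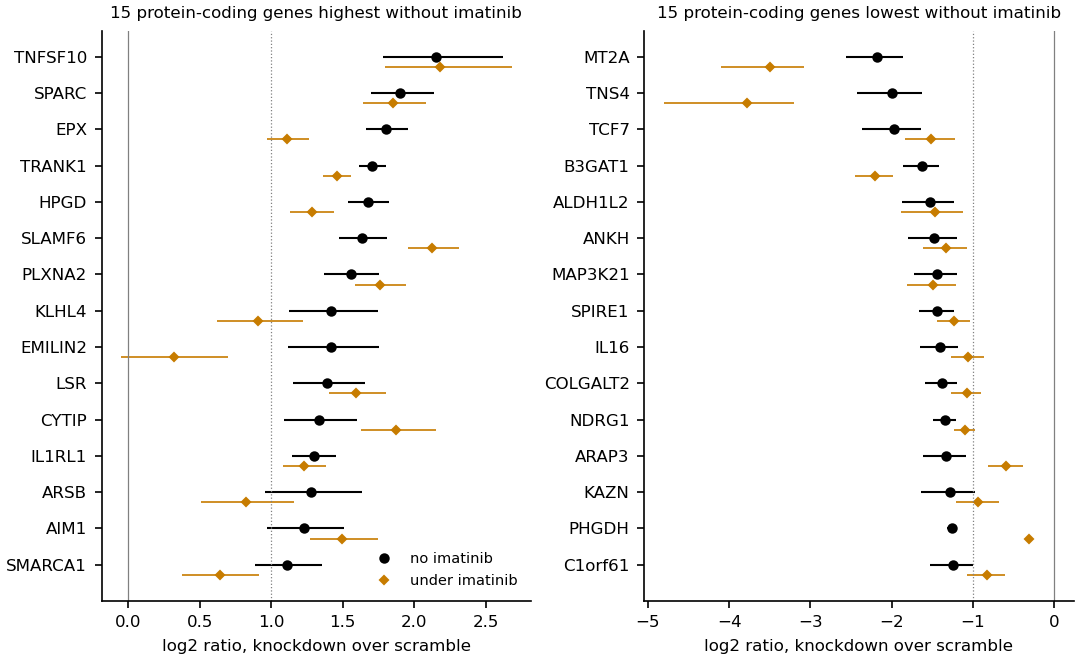
The 15 protein-coding genes with the highest and the 15 with the lowest log2 ratio without imatinib among genes whose mean reached 5 CPM (black points, bars are 95% counting intervals), with the ratio of the same gene under imatinib (orange diamonds); dotted lines mark 2-fold. All 30 diamonds lie on the same side of 0 as their black point, and PHGDH and EMILIN2 are among those that lie nearest to 0 under imatinib.

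Less abundant genes gave larger ratios with wider intervals. Of protein-coding genes with a mean of 1 to 5 CPM, SLC16A10, a transporter of aromatic amino acids, had 8 counts in the scramble and 121 in the knockdown library, a log2 ratio of 3.73 [3.02, 5.29], but 29 and 49 counts under imatinib, a ratio of 0.83. ABCA9, a lipid transporter of the ABC family, had 35 and 194 counts here and 45 and 252 under imatinib, ratios of 2.52 and 2.55. CD24, a surface sialoglycoprotein, had 28 and 119 counts (2.13) and was 1.79 under imatinib. FAM198B stood at 2.27, FHAD1 at 2.26 and ADGRG5, an adhesion receptor, at 2.20.

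On the lower side of these rarer genes, APC2, a relative of the tumour suppressor APC in the β-catenin destruction complex, had 137 counts with the scramble hairpin and 16 with the TCF7 hairpin here and 222 and 10 under imatinib, with ratios of -2.84 [-3.82, -2.22] and -4.11. MMP17, a membrane-bound metalloproteinase, was -2.71 [-3.63, -2.12] without the drug and -0.23 [-0.60, 0.13] under it. CD96, a receptor of T and NK cells, had 75 and 10 counts, a ratio of -2.58, and 60 and 16 under imatinib. Others were a locus known only by a clone name, with 71 and 4 counts (-3.51), and FMNL2, a formin, at -2.52. On the deposited FPKM plus 0.1, which shrinks low values, the log2 ratios were -1.60 for APC2, -1.65 for CD96 and -1.69 for FMNL2. On the higher side they were 1.89 for SLC16A10, 1.88 for ABCA9, 1.56 for FHAD1, 1.44 for ADGRG5 and 1.22 for FAM198B, so each stayed beyond 2-fold at a smaller size. The 6 highest of these genes were all higher under imatinib and the 6 lowest all lower, 5 and 4 of them by 2-fold or more. Over all genes, of every level, 1.32% were 2-fold higher and 1.51% 2-fold lower there. Large ratios are more common at low levels. Of the 2926 genes at a mean of 1 to 5 CPM, 72 were 2-fold higher and 147 2-fold lower without the drug. Shares at this level under imatinib were not computed.

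The other TCF/LEF factors differed far less than TCF7. LEF1, the closest relative of TCF7 in lymphoid cells, had 672 counts with the scramble hairpin and 669 with the TCF7 hairpin, a log2 ratio of 0.12 [-0.04, 0.27], and 809 and 552 counts, a ratio of -0.43 [-0.59, -0.27], under imatinib. TCF7L2 had 550 and 639 counts and a ratio of 0.34 [0.17, 0.51], and 570 and 790 counts, a ratio of 0.59, under imatinib. TCF7L1 was close to absent, with 5 and 0 counts. CTNNB1, which encodes β-catenin, stood at 8696 and 8151 counts and a ratio of 0.03. Of the 22 genes listed as TCF/LEF factors, β-catenin partners and TLE corepressors, 18 passed the filter, 6 had an interval above 0 and 4 one below 0, and the median was 0.01. TLE4, a corepressor, was 0.26, and BCL9, which couples β-catenin to its coactivators, 0.32.

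Ligands, receptors and destruction-complex genes of the Wnt pathway gave 31 members that passed, with 3 intervals above 0, 8 below 0 and a median of -0.06. APC2, given above, was by far the lowest. The receptor FZD2 had 50 and 83 counts, a log2 ratio of 0.83 [0.33, 1.39], and the ligand WNT5B 128 and 197 counts, 0.73 [0.42, 1.08]. WNT10B, a ligand of the canonical pathway, had 50 and 27 counts (-0.73), and AXIN1, the scaffold of the destruction complex, was -0.31. Of 32 genes listed as Wnt targets 16 passed, with 3 intervals above 0, 6 below 0 and a median of -0.05. AXIN2, the target used most often as a readout of the pathway, had 67 and 74 counts and 0.26 [-0.23, 0.76], an interval that held 0. CCND1 stood at -0.06, and VEGFA, lowest of the targets, at -0.76.

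The letters that TCF/LEF factors are known to bind, ATCAAAG on either strand, were looked for in the 250 bases before the start of each gene in RefSeq (GRCh38.p14). They occurred in 2.28% of 27305 such windows and in 1.30% of those of the genes compared here. They occurred in 0 of the 73 windows that could be matched to a 2-fold higher gene and in 2 of the 123 (1.63%) matched to a 2-fold lower gene. A match is only a description of the letters, and this window leaves out distant enhancers.

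Metallothioneins, small proteins that bind zinc, copper and cadmium, were lower together. MT2A had 421 counts with the scramble hairpin and 84 with the TCF7 hairpin, or 12.7 and 2.76 CPM, a log2 ratio of -2.18 [-2.56, -1.86]. MT1G had 97 and 16 counts, -2.35 [-3.34, -1.71], and MT1X 71 and 22 counts, -1.49 [-2.33, -0.86]. MT1F with 28 and 1 counts and MT1E with 17 and 1 were too low to pass the filter. MT1A, with 1 and 0 counts, and MT1H, with 4 and 8, were the other MT1 genes of the table and were barely detected. The first 5 of these genes had fewer counts in the knockdown library, and near-identical sequence between family members makes the split of reads among them uncertain.

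Under imatinib these 5 genes were again lower with the TCF7 hairpin. MT2A had 464 and 36 counts (-3.50), MT1X 51 and 6 (-2.62 [-4.48, -1.74]), and MT1G 112 and 0, which makes it at least 34.3-fold lower against a floor of 3 counts per library. MT1F, with 36 and 0 counts, was at least 11.02-fold lower, and MT1E, with 7 and 0, at least 2.14-fold. The ratios of MT2A and MT1X were larger in size than without the drug. MTF1, the zinc-sensing factor that activates these genes, had 1135 and 1172 counts without the drug, a ratio of 0.17. SLC30A1, a zinc exporter that is also a known MTF1 target, had 2752 and 2296 counts, a small difference of -0.14 [-0.22, -0.06]. The whole list of 24 metal-handling genes that passed had a median of 0.02, with 6 intervals above and 6 below 0, and its 3 members at 2-fold or lower were MT2A, MT1G and MT1X.

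The promoters of the pair of metallothioneins with a RefSeq window are shown because both are dense in the metal response element that MTF1 binds, written here as TGCACNC or TGCGCNC on either strand and set in capitals. The windows are the 250 bases before the start, 5′ to 3′ on the plus strand, at chr16:56608334-56608583 for MT2A and chr16:56682220-56682469 for MT1X (RefSeq, GRCh38.p14).
MT2A: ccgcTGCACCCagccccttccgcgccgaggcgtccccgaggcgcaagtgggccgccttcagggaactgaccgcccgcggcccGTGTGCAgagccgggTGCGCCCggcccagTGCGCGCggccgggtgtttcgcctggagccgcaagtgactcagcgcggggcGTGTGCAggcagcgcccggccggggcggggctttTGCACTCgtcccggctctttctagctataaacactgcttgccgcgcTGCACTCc
MT1X: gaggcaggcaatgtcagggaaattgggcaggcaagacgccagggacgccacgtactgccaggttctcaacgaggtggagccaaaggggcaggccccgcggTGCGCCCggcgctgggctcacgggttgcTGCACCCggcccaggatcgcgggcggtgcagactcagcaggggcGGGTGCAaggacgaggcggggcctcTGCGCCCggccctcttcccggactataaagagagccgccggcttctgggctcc
The MT2A window holds 7 matches and the MT1X window 4, while 24.7% of all windows hold at least 1. Of the windows matched to genes 2-fold lower with the TCF7 hairpin, 43 of 123 (34.96%) hold a match, next to 33.8% for all compared genes.

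Most listed genes of eosinophils, basophils and mast cells, lineages related to the myeloid origin of the line, were higher with the TCF7 hairpin. Of 18 listed genes 11 passed; 8 had an interval above 0, 0 one below 0, 4 were 2-fold higher, and the median was 0.82. Of these 4, EPX, HPGD and IL1RL1 are also among the 15 highest genes, which were chosen for the same values. EPX, the eosinophil peroxidase, had 498 and 1601 counts, or 15.03 and 52.6 CPM, a log2 ratio of 1.80 [1.66, 1.95], and 558 and 1111 counts under imatinib, a ratio of 1.11. HDC, which makes histamine, had 57 and 181 counts, 1.75 [1.35, 2.24], and 55 and 148 under imatinib, 1.51. CLC, the Charcot-Leyden crystal protein, was 0.82 [0.65, 1.00] and PRG2, the major basic protein, 0.82. PRG3, a relative of PRG2 named after its value was seen, was the lowest member, with 65 and 41 counts and -0.52 [-1.14, 0.04], an interval that held 0. Under imatinib 7 of the 11 had an interval above 0 and 3 one below 0, among them PRG3 at -0.84, and the median was 0.48. By sign alone 7 were higher and 4 lower there, where 53.4% of all genes were higher. For EPX and HDC both knockdown libraries were above both scramble libraries.

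Other defining genes of these lineages differed little without the drug or were barely or not detected. KIT, the stem cell factor receptor, had 284 and 268 counts (0.04). GATA2, a factor of progenitors and mast cells, had 6885 and 6760 counts (0.10 [0.05, 0.14]), an interval above 0. The mast cell protease CPA3 and the eosinophil ribonuclease RNASE3 were at 0 counts in both libraries, and FCER1A, the α chain of the IgE receptor, had 6 and 5 counts. CLC was 0.17 under imatinib, where KIT was -0.44 and GATA2 0.48 [0.44, 0.52]. Whether a larger share of cells of these lineages had a part in the EPX and HDC values was not tested.

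The receptor for interleukin 33, which acts on mast cells, basophils and eosinophils, is made of IL1RL1 (ST2) and the accessory chain IL1RAP, and these differed in opposite directions. IL1RL1 had 506 counts with the scramble and 1144 with the TCF7 hairpin, or 15.3 and 37.6 CPM, a log2 ratio of 1.30 [1.15, 1.45]. IL1RAP had 115 and 46 counts, or 3.47 and 1.51 CPM, a ratio of -1.17 [-1.73, -0.69]. Under imatinib the ratios were 1.23 and -2.63, so each chain kept its direction. IL18R1, the neighbouring receptor gene for interleukin 18, had 702 and 1077 counts and a ratio of 0.74. Of the 16 genes of this receptor family and its adaptors that passed, the median was -0.04, and MYD88, the shared adaptor, was 0.14.

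Transcripts from the constant segments of T cell receptor genes were higher with the TCF7 hairpin, although their levels were low. TRBC1 had 58 and 133 counts, 1.75 and 4.37 CPM, a log2 ratio of 1.29 [0.86, 1.79], and TRAC 33 and 91 counts, 0.996 and 2.99 CPM, 1.53 [1.00, 2.21]. TRDC, the δ segment, named after its values were seen, had 245 and 516 counts and 1.19 [0.97, 1.42]. These 3 are all the constant segments that passed, and under imatinib the ratios were 1.37 for TRBC1, 0.89 for TRAC and 0.65 for TRDC. Genes of the CD3 complex, which T cells need to carry the receptor, did not share this: CD3E was at 0 counts, CD3D had 688 and 510 counts (-0.31) and CD3G 158 and 162 (0.16).

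**Figure D3:**
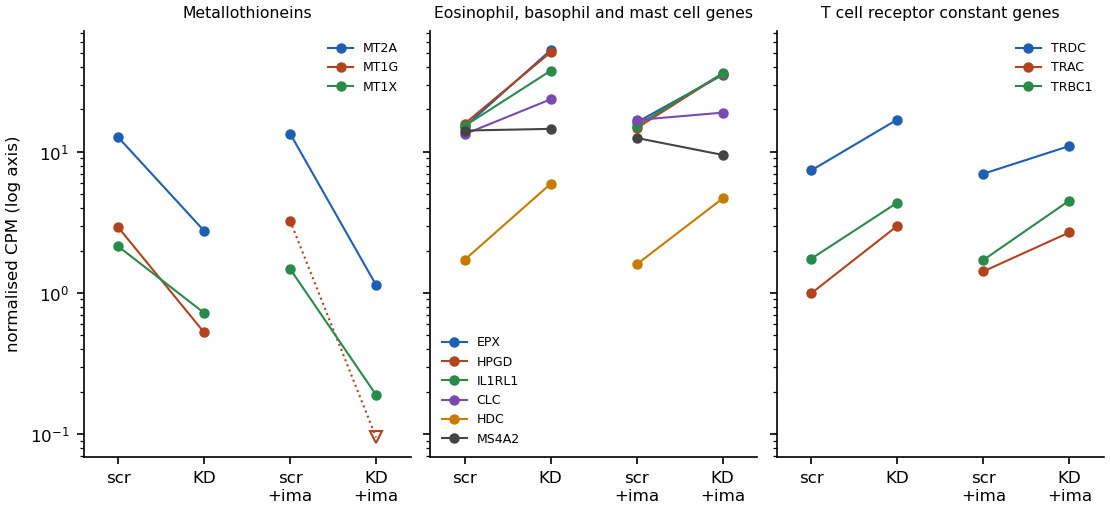
TMM-normalised CPM (log axis) in each of the 4 libraries, 1 point per library, for metallothioneins, for genes of eosinophils, basophils and mast cells, and for T cell receptor constant segments; an open triangle is the upper limit that a count of 0 allows. MT2A lies at 12.7 and 2.76 CPM and EPX at 15.03 and 52.6 CPM in the scramble and knockdown libraries, while MS4A2, the β chain of the IgE receptor, is nearly level at 469 and 443 counts.

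Genes that supply serine and glycine and load folate with carbon units were lower at several steps. PHGDH, the first enzyme of serine synthesis (chr1:119648411-119744226, plus strand), had 7869 counts with the scramble and 3022 with the TCF7 hairpin, or 237 and 99.3 CPM, a log2 ratio of -1.26 [-1.32, -1.20]. Under imatinib the counts were 7257 and 5365 and the ratio -0.31, a much smaller difference. PSAT1, the second enzyme of the route, had 2104 and 1248 counts (-0.63), but PSPH, the third, 291 and 346 counts (0.37 [0.14, 0.60]). In the mitochondrial folate cycle, ALDH1L2 had 340 and 107 counts (-1.53 [-1.87, -1.23]) and MTHFD1L 3330 and 1823 (-0.75). ASNS, which makes asparagine, had 2573 and 1283 counts, or 77.7 and 42.1 CPM, with ratios of -0.88 [-0.98, -0.78] here and -0.89 under imatinib. Of 20 such genes that passed, 9 had an interval below 0 and 5 one above 0, with a median of -0.11, so the lower values were not shared by the whole list. PSPH was chosen after its value was seen.

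Among amino acid transporters, SLC7A5 (LAT1), which imports large neutral amino acids, had 4169 and 1709 counts, or 126 and 56.1 CPM, a log2 ratio of -1.16 [-1.25, -1.08]. SLC7A11 (xCT), which imports cystine and is also in the NRF2 list below, had 3601 and 1530 counts, 109 and 50.3 CPM, and -1.11 [-1.20, -1.03], and SLC1A4, a carrier of serine and alanine, 536 and 226 counts and -1.12. SLC3A2 (CD98), the heavy chain that SLC7A5 and SLC7A11 share, was -0.36. Under imatinib SLC7A5 was -0.89, SLC1A4 -1.17, SLC7A11 -0.44 and SLC3A2 0.19. Of 19 listed transporters that passed, 10 had an interval below 0 and 2 one above 0, 3 were 2-fold lower, and the median was -0.14.

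Several of these genes are known targets of ATF4, the factor of the integrated stress response. ATF4 itself, named after its values were seen, had 6933 and 5424 counts and a log2 ratio of -0.23 [-0.28, -0.18]. ATF3, a stress-induced factor, had 114 and 34 counts (-1.57 [-2.22, -1.06]), TRIB3, a pseudokinase, 1104 and 679 (-0.58), DDIT3 (CHOP) 585 and 365 (-0.56 [-0.75, -0.37]) and DDIT4, an inhibitor of mTORC1, 1347 and 726 (-0.77). Of 21 genes of the response that passed, 11 had an interval below 0 and 2 one above 0, and the median was -0.23. Under imatinib DDIT4 was -1.81 and ATF3 -1.28, while DDIT3 was 0.04 and CEBPB, a partner factor at -0.82 without the drug, 0.35.

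The ASNS promoter is shown because it holds the composite element through which ATF4 and C/EBP proteins are known to act, written here as TGATGNAA on either strand and set in capitals. The window is chr7:97872409-97872658 on the minus strand, printed 5′ to 3′ (RefSeq, GRCh38.p14).
ASNS: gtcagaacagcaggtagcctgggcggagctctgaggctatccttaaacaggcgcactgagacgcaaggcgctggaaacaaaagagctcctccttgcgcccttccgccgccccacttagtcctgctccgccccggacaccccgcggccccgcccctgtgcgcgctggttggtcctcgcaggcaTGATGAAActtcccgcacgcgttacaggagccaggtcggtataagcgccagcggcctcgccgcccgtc
The match begins 68 bases before the start. Such letters occur in 3.19% of all windows, in 1.29% of those of the compared genes, in 3 of 20 matched to genes of the integrated stress response, in 3 of 11 (27.3%) of the serine, folate and asparagine genes and in 0 of 18 of the transporters. The windows of PHGDH, PSAT1, SLC7A5, TRIB3 and DDIT3 hold 0 matches, and that of ATF3 holds 1. No match in a window says only that these letters are not in it.

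Genes of the antioxidant response that NRF2 (NFE2L2) drives were lower in most cases. Of 27 listed genes 23 passed; 19 had an interval below 0 and 3 one above 0, and the median was -0.33. OSGIN1, an oxidative stress-induced growth inhibitor, had 595 and 236 counts, or 18.0 and 7.75 CPM, a log2 ratio of -1.21 [-1.44, -0.99]. ME1, the cytosolic malic enzyme that makes NADPH, had 4542 and 2557 counts (-0.71), AKR1C1, a ketosteroid reductase, 10599 and 6374 (-0.61 [-0.66, -0.57]), and NQO1, a quinone reductase, 5067 and 3429 (-0.44). FTH1, the ferritin heavy chain, was -0.33. ABCC2 (MRP2), an efflux pump under NRF2 control, was -0.72 without the drug and -0.25 under it. HMOX1, a classical NRF2 target, had 0 counts in both libraries.

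Several NRF2 genes stood on opposite sides of 0 in the 2 pairs. Under imatinib the median was 0.04, with 11 intervals above 0 and 8 below 0. By sign alone 13 of the listed genes were higher and 10 lower there, where 53.4% of all genes were higher. OSGIN1 had 746 and 831 counts there, a ratio of 0.28 [0.13, 0.42], AKR1C1 0.33 and NQO1 0.27, all opposite in sign to the pair without the drug. ME1 at -0.54 and SLC7A11 at -0.44 kept their direction. The difference between the pairs was not tested, as each rests on 1 library a side. Across 10041 genes with a mean of at least 5 CPM, Spearman's rho between the log2 ratio and GC content was -0.10 without the drug and 0.36 under it, a description over genes of the same libraries; its part in these signs was not tested. The core of the antioxidant response element, TGACNNNGC, occurs in 11.03% of all windows, in 12.4% of those of the compared genes and in 4 of 18 (22.2%) matched to the NRF2 list. The windows of OSGIN1 and NQO1 hold 0 matches and that of ME1 holds 1.

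**Figure D4:**
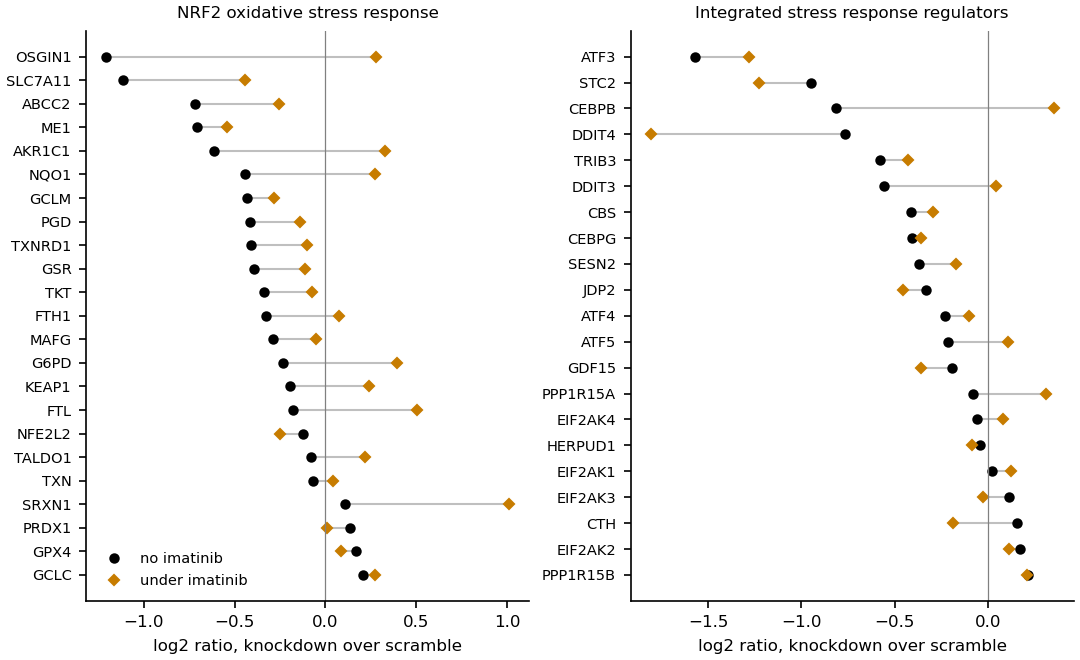
Log2 ratio of knockdown over scramble, 1 row per gene, for the 23 NRF2 genes and the 21 integrated stress response genes that passed. Black points are values without imatinib, orange diamonds those under imatinib, and a grey line joins them. Most black points lie left of 0. For OSGIN1 (-1.21, 0.28), AKR1C1 (-0.61, 0.33) and CEBPB (-0.82, 0.35) the diamond lies right of 0.

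Hypoxia-responsive genes were lower for the most part. Of 24 that passed, 17 had an interval below 0 and 5 one above 0, with a median of -0.29 here and -0.24 under imatinib. NDRG1, a stress-responsive differentiation gene, had 1531 and 551 counts, 46.2 and 18.1 CPM (-1.35), P4HA2, a collagen prolyl hydroxylase, was -0.91, and VEGFA, the angiogenic growth factor, had 2444 and 1327 counts (-0.76). CA12, a membrane carbonic anhydrase, stood opposite with 46 and 97 counts, 1.16 [0.68, 1.74]. Glycolytic genes and their transporters gave 24 of 24 that passed, with 18 intervals below 0 and 3 above 0 and a median of -0.18. SLC16A3 (MCT4), the lactate exporter, had 94 and 29 counts (-1.52 [-2.23, -0.96]) and ALDOC, an aldolase, 2524 and 1128 (-1.04). PDK1, which restrains pyruvate entry to the mitochondrion, had 5666 and 3414 counts (-0.61) and LDHA, lactate dehydrogenase A, 36648 and 26595 (-0.34). Under imatinib SLC16A3 was -0.17, while ALDOC was -1.13, PDK1 -0.74 and LDHA -0.62. The core letters ACGTG of the hypoxia response element occur in 18.7% of all windows, in 23.9% of those of the compared genes, in 9 of 19 (47.4%) matched to hypoxia genes and in 8 of 22 (36.4%) matched to glycolytic genes.

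Chaperones and folding factors of the endoplasmic reticulum were higher. Of 27 listed genes all 27 passed, 16 had an interval above 0 and 0 one below 0, and the median was 0.13 here and 0.11 under imatinib. HSP90B1 (GRP94) had 38126 and 48609 counts, or 1151 and 1597 CPM, a log2 ratio of 0.47 [0.45, 0.49]. HSPA5 (BiP) had 15893 and 18730 counts, or 480 and 615 CPM, and 0.36, and CALR, the calcium-binding lectin calreticulin, 27333 and 34157 counts and 0.44. CRELD2 was 0.43 and MANF, a secreted survival factor, 0.29. HSP90B1 was 0.12 under imatinib, while HSPA5 was 0.36 and CALR 0.53 there. These differences were small in fold but rest on many reads.

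Promoters of HSPA5 and HSP90B1 are shown because they hold the ER stress element, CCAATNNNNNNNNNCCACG on either strand (capitals), through which ATF6 is known to act with NF-Y. The windows are chr9:125241344-125241593 on the minus strand and chr12:103930160-103930409 on the plus strand, 5′ to 3′ (RefSeq, GRCh38.p14).
HSPA5: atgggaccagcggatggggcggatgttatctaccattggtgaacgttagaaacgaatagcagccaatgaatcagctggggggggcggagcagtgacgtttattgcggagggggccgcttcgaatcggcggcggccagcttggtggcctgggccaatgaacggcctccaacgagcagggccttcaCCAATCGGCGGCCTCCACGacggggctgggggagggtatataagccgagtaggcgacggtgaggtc
HSP90B1: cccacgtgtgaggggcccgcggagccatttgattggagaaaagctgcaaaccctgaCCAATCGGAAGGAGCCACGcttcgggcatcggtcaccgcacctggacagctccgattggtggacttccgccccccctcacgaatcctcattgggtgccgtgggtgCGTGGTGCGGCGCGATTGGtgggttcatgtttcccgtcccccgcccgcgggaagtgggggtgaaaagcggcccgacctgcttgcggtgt
HSPA5 has 1 match and HSP90B1 has 2. The element occurs in 0.0806% of all windows, in 0.157% of those of the compared genes and in 6 of 24 matched to the list of ER chaperones.

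Genes of DNA replication and of mitosis were slightly higher without the drug. Of 38 genes of the G1/S programme that passed, 23 had an interval above 0 and 3 one below 0, with a median of 0.11, and of 37 mitotic genes 26 and 3, also with 0.11. Under imatinib the G1/S median was 0.10, and the mitotic median was 0.01 with 14 intervals above 0 and 12 below 0. By sign alone 20 mitotic genes were higher and 17 lower there, where 53.4% of all genes were higher. The difference between the pairs was not tested. MCM6, a subunit of the replicative helicase, had 7272 and 9486 counts, 219 and 312 CPM, a log2 ratio of 0.51. HMMR, a spindle protein, had 8324 and 9817 counts (0.36) but was -0.02 under imatinib. CCND2, a D-type cyclin, was lower with 7094 and 4795 counts (-0.44) and was -0.64 under imatinib, and CDKN1B (p27), an inhibitor of cyclin-dependent kinases, was higher at 0.46. CDKN1A (p21) had 85 and 43 counts, -0.83, and was -0.05 under imatinib. The E2F letters TTTCGCG or TTTGGCG occur in 2.70% of all windows, in 4.59% of those of the compared genes and in 10 of 34 (29.4%) matched to G1/S genes.

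**Figure D5:**
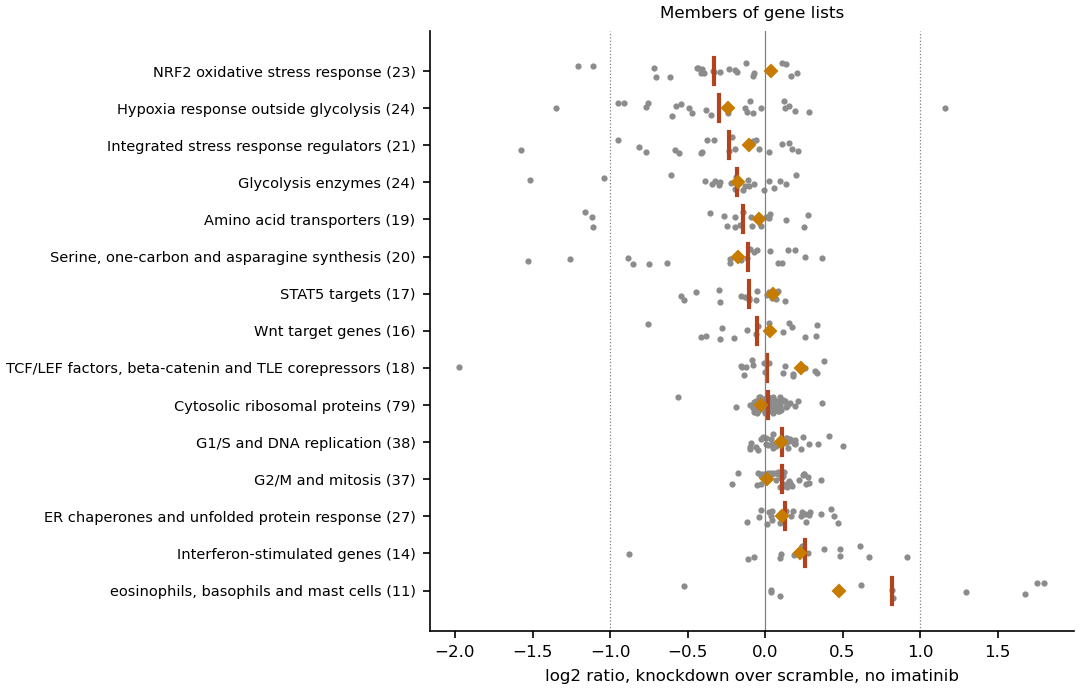
Log2 ratio of knockdown over scramble without imatinib for the members of 15 gene lists that passed the filter, 1 point per gene, with a bar at the list's median and a diamond at its median under imatinib; the number of members is in parentheses. The eosinophil, basophil and mast cell list has the highest median, 0.82, and the NRF2 list the lowest, -0.33, with 0.04 under imatinib.

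Receptors, adhesion genes and matrix genes differed gene by gene. IGF1R, the insulin-like growth factor receptor, had 527 and 225 counts, 15.9 and 7.39 CPM, a log2 ratio of -1.10 [-1.34, -0.88], and was -1.14 under imatinib. AXL, a receptor kinase of the TAM family, had 365 and 658 counts (0.97) and was 0.81 under imatinib, and FGFR1 had 38 and 90 counts (1.32). FGFR1 was 0.69 under imatinib, and without the drug it was 0.80 on the deposited FPKM plus 0.1, under 2-fold. The integrin β chains ITGB4 and ITGB5 stood at -1.11 and -1.03, while ITGAM (CD11b), an integrin of myeloid cells, had 65 and 113 counts (0.90). SEMA3F, a secreted semaphorin, was -1.03 and PLXND1, a semaphorin receptor, -0.66, opposite to PLXNA2. IGF1R, ITGB4, ITGB5 and SEMA3F kept a similar size under imatinib, at -1.14, -1.18, -0.99 and -1.30.

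Genes whose annotated type is other than protein-coding were ranked apart, which takes in pseudogenes and the T cell receptor segments TRAC and TRBC1 given above as well as noncoding RNAs. The 6 highest with a mean of 1 CPM or more ran from 1.29 to 1.66. Of these 4 were higher and 2 lower under imatinib, where 53.4% of all genes were higher. NDUFA6-AS1, an antisense RNA, had 24 and 62 counts without the drug and 61 and 25 under it, log2 ratios of 1.42 and -1.11. The 6 lowest ran from -1.75 to -1.53, of which 5 were lower under imatinib, where 46.6% of all genes were lower. LUCAT1, a long noncoding RNA reported as stress-induced, had 160 and 49 counts (-1.55) and 135 and 77 under imatinib (-0.67). Reads of antisense and overlapping genes cannot be told apart here, because the strand setting of the counting is not given in the sources used here.

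Of all 123 genes 2-fold higher without imatinib, 100 were higher and 52 were 2-fold higher under it, and 4 were 2-fold lower. Of the 233 genes 2-fold lower, 188 were lower and 75 were 2-fold lower under imatinib, and 5 were 2-fold higher. Over all genes compared, 53.4% were higher and 46.6% lower under imatinib, 1.32% were 2-fold higher and 1.51% 2-fold lower. Among genes with a mean of at least 5 CPM the counts were 19 of 19 higher, 14 by 2-fold, and 37 of 38 lower, 22 by 2-fold; OSGIN1 was the exception. Of the 123 genes 13 belong to any of the 53 lists, and of the 233 genes 27. Over all genes compared, 1094 of 13296 do.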

How the data were processed

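Per the labels' protocols, 1 directional library was built from the total RNA of each of 4 K562/G01 cultures after removal of ribosomal RNA. The submitters' processing notes list FastQC, HISAT2, HTSeq 0.6.1 and GRCh38. Neither the annotation release nor the strand setting used in counting is given there. The authors deposited 1 table of 28482 genes that holds, per the file headers, counts and FPKM per library. The deposited counts were used as they stand. The deposited FPKM were treated as a score, because 6 genes have negative values, and served only for an alternative; the deposited log2 columns of these values were not used. The table has 0 columns of samples outside this study.

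CPM were scaled with TMM (edgeR 4.0.16 in R 4.3.3). Log2 ratios carry a prior count of 2, and their 95% intervals are exact binomial intervals of the counts of both libraries (SciPy 1.17.1, Python 3.11.15, pandas 2.3.3, NumPy 2.4.6), which were tested on simulated data. A count of 0 allows up to 3 counts. Identifiers were matched to GENCODE release 29 for gene types and positions, 28329 in all, 26313 with the same version. Counts of overlapping genes and of near-identical copies (HBA1 and HBA2, metallothioneins, histones) are uncertain.

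Members and lists were chosen with earlier results of these data known. The text names TCF7, the 15 highest and 15 lowest protein-coding genes whose mean reached 5 CPM, the 6 and 6 at 1 to 5 CPM, the 6 and 6 that are not protein-coding, up to 6 members of each list with the largest ratios, and a few genes of the Wnt pathway, BCR-ABL1 signalling and the line's identity; some genes that the rule names are left out of the text. PSPH, ATF4, TRDC, MYD88, TNFRSF10A, TNFRSF10B, IER3IP1, NRCAM, MS4A2, PRG3, MT1A, MT1H and the markers listed at 0 were named after their values were seen. One RefSeq promoter window per gene was searched, 250 bases before the start, matched for 8942 of the 13296 genes. The letters for NRF2, ATF4 and the ER stress element were added after list values were seen. Alternatives were DESeq2 1.42.0 size factors, total counts, a prior count of 0.5, other filters, a fold limit of 1.5, thinning to the smaller library, the deposited FPKM plus 0.1 and removal of a GC and length trend (mgcv 1.9.3).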

Additional observations from a re-analysis of the deposited data

Results flagged for a closer look

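Of the 341 genes that the rules name, 334 passed the filter. For 12 of these 334 the pairs without and under imatinib had opposite signs. Both counting intervals were clear of 0 and both sizes at least 0.25. With 1 library a side the difference between the pairs was not tested. Spearman's rho between the log2 ratio and GC content over genes was -0.10 without the drug and 0.36 under it. GC content was 69.0% for ZFPM1, 66.2% for CEBPB and 63.4% for OSGIN1, but 46.0% for NQO1 and 42.4% for AKR1C1. The part of GC content in the opposite signs was not tested. With no limit on size, 839 of the 13296 genes compared had opposite signs and both intervals clear of 0, 9 of them at 2-fold or more in both pairs. No count over all genes was made at the limit of 0.25, so the 12 have no like share beside them.

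The values without the drug and then under it were -1.21 and 0.28 for OSGIN1, -0.61 and 0.33 for AKR1C1 and -0.44 and 0.27 for NQO1, all NRF2 targets. They were -0.82 and 0.35 for CEBPB, a bZIP factor of the acute-phase and stress responses, -0.36 and 0.45 for ZFPM1 (FOG1), the cofactor of GATA1, and 0.37 and -0.28 for ETV5, a factor induced by ERK signalling. Among NF-κB genes they were -0.48 and 0.60 for IKBKG (NEMO) and -0.34 and 0.45 for NFKBIE, an inhibitor. The remaining values were -0.53 and 0.62 for MYL9, a myosin light chain, -0.52 and 0.56 for CD82, a tetraspanin, 0.36 and -0.36 for HSPE1, a mitochondrial chaperonin, and 1.42 and -1.11 for NDUFA6-AS1.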

How the results depend on the processing

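No paired analysis was possible because each group is 1 library, and no replicate could be left out for the same reason. The 356 genes at 2-fold or more, 123 higher and 233 lower, depended on how low values were treated. Their number was 225 (78 higher, 147 lower) on the deposited FPKM plus 0.1, 4078 (2084 and 1994) with no filter among 25577 genes, 68 (24 and 44) with a filter at 5 CPM, 1220 (488 and 732) at a fold limit of 1.5 and 94 (42 and 52) where the whole interval had to lie beyond 2-fold. With DESeq2 size factors, total counts, a prior count of 0.5, thinned counts or a GC and length trend removed, each number stayed within 1.5 times. TCF7 lay between -1.66 and -1.99 in the 6 alternatives run for it. Of 50 list medians, removal of the trend put that of cytosolic ribosomal proteins at -0.000383 rather than 0.02 and that of mitochondrially encoded mRNAs at 0.0522 rather than 0.12. In every alternative run the other 48 stayed within an interval around the median taken from the list's ranked ratios. That interval can be wide, such as 0.04 to 1.75 for the eosinophil, basophil and mast cell list. Of 333 other named genes, 24 moved by more than their interval with the trend removed and 11 on FPKM plus 0.1. The cause was not tested. Depth limits genes under 5 CPM most, since their intervals often span more than 2-fold, and no value here has a replicate.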

Other observations

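Genes of red cells and platelets, the lineages that K562 cells resemble, differed in both directions. ALAS2, the first enzyme of heme synthesis in red cells, had 1384 counts with the scramble and 2128 with the TCF7 hairpin, a log2 ratio of 0.74, and was 0.30 under imatinib, and ALAD, the second enzyme, had 431 and 591 counts, 0.58, and was 0.72. SLC25A37 (mitoferrin-1), which brings iron into the mitochondrion, was lower with 7668 and 5127 counts, -0.46, and HBE1, the embryonic ε-globin, had 39155 and 27717 counts, -0.38, but was 0.02 under imatinib. GATA1, the main erythroid factor, stood at 0.07. Of the platelet genes, TUBB1, the platelet β-tubulin, had 1136 and 604 counts, -0.79, and GP6, the collagen receptor, 242 and 103, -1.10, while PLEK, the protein kinase C substrate pleckstrin, had 40 and 85, 1.17. Under imatinib these were -0.65, -0.82 and 1.02, so each kept its direction.

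The genes of the fusion kinase and its signalling were close to level at BCR (-0.10) and ABL1 (-0.07). LYN, a SRC-family kinase known for its part in imatinib resistance, had 44905 counts in the scramble and 27701 in the knockdown library, a log2 ratio of -0.57, and was -0.68 under imatinib. On chromosome 8, where LYN starts at base 55879813, 2 genes named for other lists had similar values. RPS20, a ribosomal protein gene at 56067295, was -0.56 and -0.71. ATP6V1H, a proton pump subunit at 53715557, was -0.50 and -0.49. How many other compared genes of this region share such values was not counted. Farther along the same arm, MYC was 0.03 and NDRG1 -1.35 without the drug. The median of the 441 compared genes of chromosome 8 was -0.03. The part of a shared regional difference in the LYN value was not tested. Among ABC transporters, ABCA3, a lipid pump of lysosome-related organelles, had 768 and 309 counts, -1.19, and ABCB1, the drug pump P-glycoprotein, only 11 and 4. Of 14 interferon-stimulated genes that passed, 8 had an interval above 0 and 1 one below 0. BST2 (tetherin) had 1300 and 1674 counts and RSAD2 (viperin) 78 and 137, while IFI16, a DNA sensor, was lower with 180 and 89 counts. TP53INP1, a p53 target, had 409 and 662 counts, a ratio of 0.81, and was 0.84 under imatinib.

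A pair of genes, chosen after their values were seen, was at 0 counts with one hairpin in both drug states. LRRN3, a leucine-rich repeat protein known as a marker of naive T cells, had 37 counts with the scramble hairpin and 0 with the TCF7 hairpin, and 54 and 0 under imatinib, at least 11.3-fold and 16.5-fold lower against a floor of 3 counts per library. LINC01986, a noncoding RNA, had 0 and 49 counts, and 0 and 35 under imatinib, at least 17.8-fold and 12.7-fold higher. An effect of TCF7, of the vector and of the cultures cannot be told apart here.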
